A study of Mus musculus with 6 samples.

Results

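The 10 genes described here are RANKL (Tnfsf11), its receptor RANK (Tnfrsf11a), its decoy receptor osteoprotegerin (Tnfrsf11b), and 7 genes of the osteoclast type: Ctsk, Mmp9, Acp5, Nfatc1, Dcstamp, Ocstamp and Calcr. They are 10 of 31055 features in the count matrices. They were chosen by name and on measured values, since Ctsk and Mmp9 were already known to be high in tumour macrophages, and Tnfsf11 in tumour stroma, of these same libraries. The contrasts of Tumor with the glands in macrophage-like and fibroblast-like cells are therefore given for the 10 genes as descriptions, with no test. For these 10 genes, tests were run in other cell classes and between DCIS and Prepuberty glands. Genes of other lists were also tested between Tumor and DCIS, including in macrophage-like and fibroblast-like cells.

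RANKL is a cytokine of the TNF family that is held on the cell surface or shed. It binds RANK, which signals through TRAF6, NF-kB and AP-1 to NFATc1, the transcription factor that drives macrophage precursors to fuse into bone-resorbing osteoclasts, while osteoprotegerin binds RANKL and blocks it. In the mammary gland RANKL is made by hormone receptor-positive luminal cells in response to progesterone and acts on neighbouring luminal progenitors and basal cells that carry RANK.

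Single-cell RNA was measured in 6 libraries of C3(1)-Tag (C3TAG) female mice, in which a prostatic steroid-binding protein promoter, C3(1), drives the SV40 large T antigen on an FVB/NJ background. There were 2 libraries of whole mammary gland at 5 weeks (Prepuberty), 2 of whole gland containing ductal carcinoma in situ at 14 weeks (DCIS), and 2 of a palpable tumour at over 18 weeks (Tumor). All mice carried the transgene and the labels give no treatment, so age and tissue change together with the disease state and no transgene-free gland was compared. The labels do not say which libraries came from separate animals, so p-values measure only the spread between these libraries. According to the study's methods, the second tumour library was made with a later version of the kit and the tumours were dissociated with another kit than the glands. The labels give a single kit and digestion for all. The effect of dissociation cannot be told apart from that of the Tumor state, nor that of the kit version from what else sets Tumor 2 apart. Tumor 2 gave most of the Tnfsf11 and of the Ctsk-high cells described below.

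The libraries held between 30041293 and 61479653 UMIs (unique molecular identifiers, each 1 captured RNA molecule), and 21537 cells passed the filters. Tumor 2 was the deepest per cell, with a median of 13631.5 UMIs against 6541 to 10671 in the others. No library pair shared more than 39 barcodes. Cells were grouped into classes by marker genes, and markers of other types were also detected in some classes. Macrophage-like cells of Tumor 2 also held neutrophil markers, at a summed 4943 CPM for 7 genes (UMIs per 1000000 UMIs of that class in that library) against 63.3 to 1032 CPM in the other libraries. Fibroblast-like cells of Tumor 1 and Tumor 2 held T-antigen UMIs in 101 of 292 and 145 of 317 cells, against at most 4 cells in any gland, and all 10 epithelial markers were detected in them at a summed 992 and 263 CPM against 27.8 to 146 CPM in the glands. The part of either in the results was not tested. Of the 10 genes, 7 were among the features used for clustering, all but Tnfrsf11a, Dcstamp and Calcr, so levels between classes are descriptions too.

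**Figure D1:**
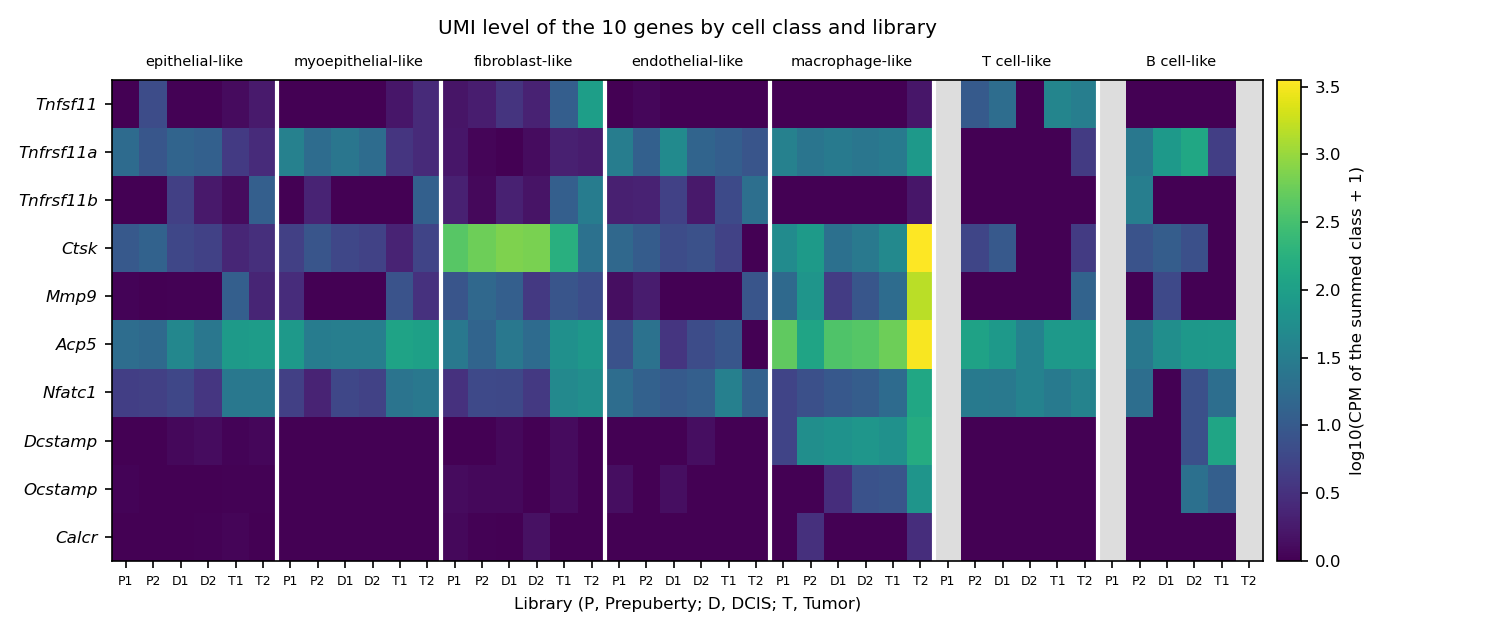
Level of the 10 genes (rows) in each cell class and library (columns; P, Prepuberty; D, DCIS; T, Tumor), as log10(CPM + 1), with grey where a class had under 10 cells. Ctsk was highest in fibroblast-like cells of the 4 glands (418 to 716 CPM) and in macrophage-like cells of Tumor 2 (3525 CPM), and Tnfsf11 in fibroblast-like cells of Tumor 2 (97.0 CPM).

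Tnfsf11, which encodes the ligand RANKL, lies on the minus strand of chromosome 14 at 78277445 to 78308043 (GRCm38, the build the submitters give as mm10). Its 250 bases before the RefSeq start, chr14:78308044-78308293, are shown because the ligand differed in fibroblast-like cells. In all promoters printed here, capitals mark matches on either strand of 4 short motifs: GGAAA (NFAT core), TGANTCA (AP-1), GAGGAA (PU.1 core) and CATGTG (an E-box of the MITF type). GGAAA and GAGGAA share bases and can overlap. They occur in 55.6%, 6.75%, 23.3% and 12.3% of 32851 such promoters.
Tnfsf11 promoter: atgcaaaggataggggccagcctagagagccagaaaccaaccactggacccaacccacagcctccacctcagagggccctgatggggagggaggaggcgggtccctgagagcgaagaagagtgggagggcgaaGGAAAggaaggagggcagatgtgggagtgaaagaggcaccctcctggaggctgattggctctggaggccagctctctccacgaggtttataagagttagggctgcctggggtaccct
A single GGAAA was found, and none of the other 3 motifs. RefSeq promoter entries matched 5 of the 10 genes.

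Tnfsf11 RNA was rare in the glands and was found mainly in fibroblast-like cells. Of all its UMIs in a library, fibroblast-like cells held 13 of 13 in Prepuberty 1, 15 of 33 in Prepuberty 2, 13 of 18 in DCIS 1, 11 of 12 in DCIS 2, 39 of 77 in Tumor 1 and 552 of 647 in Tumor 2. Their level was 0.598 and 0.921 CPM in Prepuberty, 2.40 and 1.17 CPM in DCIS, 10.5 CPM in Tumor 1 and 97.0 CPM in Tumor 2. Both tumours were above all 4 glands, and the tumours themselves lay far apart. In Tumor 2, 130 of 317 fibroblast-like cells (41.0%) held a Tnfsf11 UMI, up to 29 in 1 cell, against 29 of 292 (9.93%) in Tumor 1 and 0.474% to 1.08% of cells in the glands. As a measure of free RNA, 1 of 190 macrophage-like cells of Tumor 2 (0.526%) and 18 of 1285 epithelial-like cells (1.40%) held one. After each cell was thinned to 2000 UMIs the share was 13.6% in Tumor 2 (95% interval 9.96 to 18.0), 0.714% in Tumor 1 (0.0866 to 2.56), and 0 to 0.537% in the glands. All intervals given for counts and cells cover counting error only. The fitted log2 fold change of Tumor against DCIS was 4.11 (SE 0.92) and fell to 2.00 without Tumor 2, the library with most of the UMIs.

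The DCIS and Prepuberty glands could be compared with a test. Of the 6 genes that passed the filter on low counts in fibroblast-like cells, edgeR called 0 between DCIS and Prepuberty, as it did for 0.0% of all 12276 genes tested. None of the 6 had an unadjusted p under 0.05, and DESeq2 called 0. Tnfsf11 gave a log2 fold change of 1.41 (SE 0.96, edgeR adjusted p = 0.602).

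Tumour cells with Tnfsf11 were divided by the T-antigen transcript, which marks cells that express the transgene. In Tumor 2, fibroblast-like cells with a T-antigen UMI held 302 Tnfsf11 UMIs in 64 of 145 cells, or 93.8 CPM (83.5 to 105). Cells without one held 250 UMIs in 66 of 172 cells, or 101 CPM (88.9 to 114). The counting intervals of the levels on both sides of the split overlapped. In Tumor 1 they overlapped too, at 11.1 CPM (6.60 to 17.6) with and 10.0 CPM (6.22 to 15.3) without. A cell without a T-antigen UMI may still express it, since 55.6% of epithelial-like cells in Tumor 2 held one.

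Clustering all libraries together without integration separated the fibroblast-like cells of Tumor 2 further. A group of 186 cells led by H19, Brinp3, Mmp13, Mme and Wisp2 held 356 Tnfsf11 UMIs in 92 cells (115 CPM). Of these cells 52.7% had a T-antigen UMI, 84.4% a Pdgfra UMI, 91.9% a Dcn UMI and 15.6% an Epcam UMI. A cycling group of 58 cells, led by histone and mitosis genes, held 165 UMIs (105 CPM). Of these 58 cells 39.7% had an Epcam UMI, 50.0% Krt8, 58.6% T antigen, 62.1% Pdgfra and 60.3% Dcn. Another 29 cells, in a group led by Shox2, Krt6a and Ntng1, held 27 UMIs (39.5 CPM). Of these, 34.5% had an Epcam UMI, 58.6% Krt8, 41.4% T antigen, 65.5% Pdgfra and 20.7% Dcn. By contrast, 33 cells led by Sfrp2, Mfap4 and Col1a1 held 2 UMIs in 1 cell (6.87 CPM), and none of them had a T-antigen UMI. In Tumor 1, 173 cells of that same Sfrp2 and Col1a1 group held 26 UMIs in 22 cells (13.4 CPM). The other Tumor 1 cells, 115 in a group led by Pthlh and Nppb, held 13 UMIs (7.43 CPM). Without integration their group was named epithelial-like, with an Epcam UMI in 67.8% of the 115 cells, Krt8 in 75.7%, T antigen in 63.5%, Dcn in 5.22% and Pdgfra in 6.09%. The fibroblast-like class of Tumor 1 thus held 115 of 292 cells with mostly epithelial markers, and all values given for the class include them. Those of Tumor 2 likewise include its groups of 58 and 29 cells. The Tnfsf11 RNA of Tumor 2 therefore lay mostly in cells of a group that took 189 of its 191 cells from Tumor 2, and Tnfsf11 was itself among that group's 10 leading genes.

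**Figure D2:**
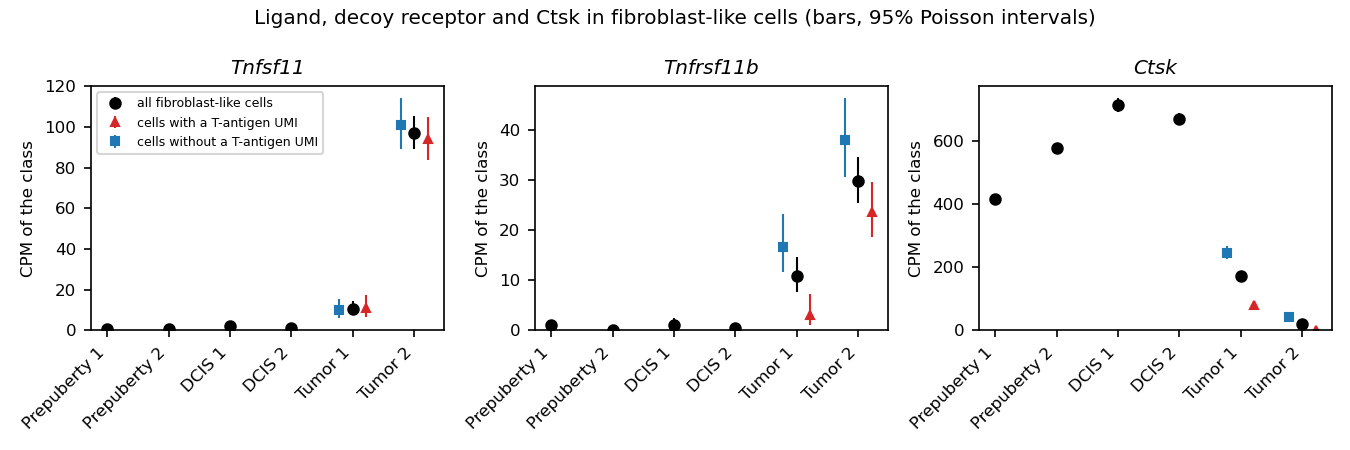
Tnfsf11, Tnfrsf11b and Ctsk in fibroblast-like cells of each library, in CPM of the class, for all cells (circles) and for tumour cells with (triangles) and without (squares) a T-antigen UMI; bars are 95% Poisson intervals. Tnfsf11 reached 10.5 and 97.0 CPM in the tumours, and Ctsk was lower there (174 and 19.8 CPM) than in the glands (418 to 716 CPM).

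Outside the fibroblast-like class, Tnfsf11 was seen in fewer cells. Unnamed clusters of Tumor 2 held 60 UMIs in 27 cells. T cell-like cells, a known source of RANKL, held 2 UMIs in Prepuberty 2, 2 in DCIS 1, 17 in 9 of 176 cells of Tumor 1 and 10 in 9 of 105 cells of Tumor 2 (39.6 and 31.7 CPM). No Tnfsf11 UMI was found in 30 T cell-like cells of DCIS 2. A count of 0 there allows up to 10% of cells with a UMI, and at a median of 1221 UMIs per cell it sets no limit on cells that express the gene. Of those 18 positive tumour cells, 5 in Tumor 1 and 4 in Tumor 2 also held Cd3e. Epithelial-like cells had 0 UMIs in 801 cells of Prepuberty 1, 1 in each DCIS library, and 11 and 21 in the tumours. Prepuberty 2 had 14 UMIs in 9 epithelial-like cells. All 9 held no Epcam, Pgr or Esr1 UMI and 2 held Pdgfra, at a median of 3801 UMIs per cell. Pgr encodes the progesterone receptor, and only 1 Tnfsf11-positive epithelial-like cell in any library, in DCIS 2, also held its RNA.

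Tnfrsf11b, the decoy receptor osteoprotegerin, lies on the minus strand of chromosome 15 at 54250619 to 54278484. In fibroblast-like cells its level was 1.10 and 0.184 CPM in Prepuberty, 1.11 and 0.532 CPM in DCIS, 10.8 CPM in Tumor 1 and 29.9 CPM in Tumor 2. It was higher in both tumours than in every gland, as Tnfsf11 was. The fitted log2 fold change of Tumor against DCIS was 3.90 (SE 0.90). Ligand and decoy were not confined to separate cells. In Tumor 2, 27 of the 130 cells with Tnfsf11 also held Tnfrsf11b (20.8%), against 17.1% of the cells without, at median depths of 18249 and 12879 UMIs. In Tumor 1 only 1 of 29 did. The groups differed, however, in which gene they held more of: 41.2 CPM of Tnfrsf11b beside 6.87 CPM of Tnfsf11 in the Sfrp2 group of Tumor 2. That Tnfrsf11b level rested on 12 UMIs in 2 cells.

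Tnfrsf11b was also found in epithelial-like cells, with a wide gap between libraries of 1 state. They held 0 UMIs in 801 and 186 cells of Prepuberty, 62 and 12 in DCIS, 11 in Tumor 1 and 278 in 141 cells of Tumor 2 (10.8 CPM). A count of 0 allows a share of cells with a UMI of up to 0.375% in Prepuberty 1 and 1.61% in Prepuberty 2, at median depths of 11705 and 5042.5 UMIs, and sets no limit on cells that express the gene. Neither comparison with Tumor was called (edgeR adjusted p = 0.782 against DCIS and 0.133 against Prepuberty).

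Tnfrsf11a, the receptor RANK, lies on the plus strand of chromosome 1 at 105780718 to 105847981. It was spread over macrophage-like, endothelial-like, epithelial-like and myoepithelial-like cells and was near 0 in fibroblast-like cells (0 to 1.08 CPM), the class with most of the ligand. Over the 6 libraries macrophage-like cells ranged from 22.8 to 80.0 CPM, endothelial-like cells from 7.50 to 49.3 CPM, myoepithelial-like cells from 1.63 to 34.7 CPM and epithelial-like cells from 1.75 to 16.2 CPM. These ranges overlapped, except that every macrophage-like value was above every epithelial-like one. The small B cell-like class, which a finer clustering divided into B cell-like and dendritic-like cells, had 25.02 CPM in Prepuberty 2, 80.04 and 128 CPM in DCIS and 3.59 CPM in Tumor 1, from 1 to 20 UMIs each.

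In macrophage-like cells Tnfrsf11a was at 35.1 and 22.8 CPM in Prepuberty, 27.2 and 23.7 CPM in DCIS, 27.4 CPM in Tumor 1 and 80.0 CPM in Tumor 2. Only Tumor 2 stood above the range of the glands. Between DCIS and Prepuberty the log2 fold change was -0.04 (SE 0.53, edgeR adjusted p = 0.992).

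In epithelial-like cells Tnfrsf11a was lower in tumours. Its level was 16.2 and 7.78 CPM in Prepuberty, 12.7 and 11.4 CPM in DCIS, 2.96 CPM in Tumor 1 and 1.75 CPM in Tumor 2, so both tumours lay below all glands. Tumor against Prepuberty gave a log2 fold change of -2.62 (SE 0.55, edgeR adjusted p = 0.0428), and against DCIS it was -2.68 (SE 0.55, edgeR adjusted p = 0.0620), which missed the threshold. Myoepithelial-like cells, which were not tested, had 34.7, 16.7, 23.9 and 17.2 CPM in the glands and 2.57 and 1.63 CPM in the tumours. Without integration this class held 0 cells of either tumour, against 142 in Tumor 1 and 134 in Tumor 2 with it. Of those 134 cells, 77 had a T-antigen UMI.

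After integration, Tnfrsf11a was also lower in tumour cells of some epithelial-like groups that all 3 states held. Without integration tumour cells mostly formed groups of their own. For example, 1849 of 1854 cells in a group came from Tumor 1 and 850 of 860 in another from Tumor 2. In the integrated group led by Pthlh and Nppb the tumours had 3.15 and 0.893 CPM. There 0 UMIs were found in 10, 74 and 21 cells of Prepuberty 1, Prepuberty 2 and DCIS 1. The part of the cell mix was not tested. In the group led by Ankrd1, Cldn1 and Aldh1a3 it was 20.5 and 7.23 CPM in Prepuberty, 14.5 and 12.8 CPM in DCIS, and 3.40 and 3.29 CPM in Tumor. The group led by Ltf, Csn3 and Elf5, markers of milk-lineage luminal cells, had 26.4 and 13.7 CPM in Prepuberty. It had 15.1 and 16.4 CPM in DCIS, and 3.19 and 2.36 CPM in Tumor. Of Tumor 2 it held 242 cells, while 48 epithelial-like cells of that library in all had a Csn3 UMI. Cells of the group led by Tph1, Cited1 and Prlr had 6.34, 6.92, 9.06 and 5.23 CPM in the glands. In all 4 glands RANK was thus lower in the Cited1 and Prlr group than in the Csn3 and Elf5 group. Over single cells of Prepuberty 1, 32.6% of 368 cells with Csn3 held Tnfrsf11a (27.8 to 37.7) and 5.77% of 433 cells without it did (3.77 to 8.41), at median depths of 21729.5 and 8357 UMIs. The share was also higher with Csn3 in the other 3 glands (30.0% against 2.21%, 24.1% against 11.1% and 19.7% against 12.1%). With and without Cited1 the shares were 17.7% and 18.4% in Prepuberty 1, 17.6% and 7.89% in Prepuberty 2, 9.68% and 12.9% in DCIS 1, and 11.8% and 14.8% in DCIS 2, with overlapping intervals in each. Cells with either gene were deeper than those without, and the part of depth was not tested.

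Of the 7 genes that passed the filter in epithelial-like cells, 4 were called between Tumor and Prepuberty by edgeR, 2 higher and 2 lower, where 5.88% of all 13408 genes tested were called. DESeq2 called 6. Only Nfatc1 was called between Tumor and DCIS (1.01% of all genes called), with 5 of the 7 at an unadjusted p under 0.05 and 4 called by DESeq2. Between DCIS and Prepuberty edgeR called 0 of 7, with 4 at an unadjusted p under 0.05, 0 called by DESeq2, and 0.0% of all genes called. All 4 calls against Prepuberty were lost when either Prepuberty 1 or Prepuberty 2 was left out, and when cells were clustered without integration. Fitting just the 4 libraries of the comparison, or leaving out DCIS 1 or DCIS 2, ended those of Tnfrsf11a and Ctsk. Leaving out Tumor 2 ended that of Tnfrsf11a. The states also draw on different groups of epithelial-like cells. The Tph1, Cited1 and Prlr group gave 344 of 801 cells in Prepuberty 1, 58 of 186 in Prepuberty 2, 12 of 2707 in Tumor 1 and 45 of 1285 in Tumor 2. A group led by Pthlh and Nppb gave 10, 74, 1005 and 345 of the same totals. The 74 cells of Prepuberty 2 had a median of 2692 UMIs and no UMI of Prlr, Pgr, Elf5, Kit, Acp5 or Tnfrsf11a, and without integration the Pthlh and Nppb group held 0 cells of that library.

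Nfatc1, the transcription factor downstream of RANK that is best known from osteoclasts, rose in tumour epithelial-like cells. Its level was 3.50 and 3.68 CPM in Prepuberty, 4.63 and 2.62 CPM in DCIS, and 25.7 and 24.97 CPM in Tumor. The tumour libraries were close to each other and well above all glands. The log2 fold change was 2.43 against DCIS (SE 0.40, edgeR adjusted p = 0.0486) and 2.56 against Prepuberty (SE 0.42, edgeR adjusted p = 0.0311). The call against DCIS was lost without Prepuberty 1, Prepuberty 2, DCIS 1 or DCIS 2, with log2 fold changes from 2.09 to 2.81 over the 6 fits that each left out 1 library. It was also lost with the replicate number as a block (2.46, edgeR adjusted p = 0.0754), with only the 4 libraries compared, with more doublets removed, with thinned sums, without integration and at a finer clustering, with log2 fold changes from 2.11 to 2.46 and adjusted p from 0.0513 to 0.140. Nfatc1 was higher in the tumours in each of 3 groups that the states shared after integration. In the Csn3 and Elf5 group, for example, it was at 4.60, 1.96, 5.65 and 0.817 CPM in gland cells and 24.5 and 16.5 CPM in tumour cells. In the same groups Tnfrsf11a was lower in the tumours.

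The same gene was at 45.6 and 56.0 CPM in tumour fibroblast-like cells against 2.25 to 4.97 CPM in the glands, with a fitted log2 fold change against DCIS of 3.03 (SE 0.49) that is a description. In Tumor 1 it was at 39.4 CPM in the 115 cells with epithelial markers and 51.7 CPM in the Sfrp2 and Col1a1 group, and in Tumor 2 at 58.0 CPM in the H19 and Brinp3 group and 10.3 CPM, from 3 UMIs, in the Sfrp2 and Col1a1 group. In T cell-like cells, where NFAT proteins act downstream of the antigen receptor, Nfatc1 had 2 to 12 UMIs in each of 5 libraries (26.3 to 38.0 CPM), too few for a test. Endothelial-like cells held 17.3 and 11.8 CPM in Prepuberty, 9.22 and 10.8 CPM in DCIS and 34.1 and 11.2 CPM in Tumor, and the last value rested on 3 UMIs.

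Acp5, tartrate-resistant acid phosphatase, is a lysosomal enzyme of osteoclasts and macrophages. It rose in epithelial-like cells of tumours. Its level there was 17.6 and 15.6 CPM in Prepuberty, 43.0 and 24.3 CPM in DCIS, and 85.2 and 90.4 CPM in Tumor, with no overlap between any of the 3 states. The log2 fold change was 2.12 against Prepuberty (SE 0.36, edgeR adjusted p = 0.0312) and 1.01 against DCIS (SE 0.34, edgeR adjusted p = 0.139). The 8 macrophage markers give the level of macrophage RNA in the same epithelial-like cells. Of the 6 libraries their sum was lowest in Tumor 2, at 12.5 CPM, and highest in Tumor 1, at 48.2 CPM. The 8 myoepithelial markers summed to 1433 and 2518 CPM in the tumours and 343 to 1106 CPM in the glands. The part of either marker set in the Acp5 difference was not tested.

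Ctsk, the collagen-degrading protease cathepsin K, was low in epithelial-like cells and lower in tumours, at 8.67 and 11.9 CPM in Prepuberty, 4.75 and 3.90 CPM in DCIS, and 1.40 and 2.02 CPM in Tumor. It was called against Prepuberty (log2 fold change -2.85, SE 0.44, edgeR adjusted p = 0.0284) and not against DCIS (-1.74, SE 0.42, edgeR adjusted p = 0.0786). Fibroblast-like cells held 94.9% to 97.3% of the Ctsk UMIs of each gland, 76.9% of those of Tumor 1 and 2.01% of those of Tumor 2, and the part of free RNA from them in the epithelial-like values was not tested.

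Mmp9, the gelatinase that degrades collagen IV, had 470 UMIs in epithelial-like cells of Tumor 1 and 34 in Tumor 2, against 1, 0, 1 and 1 in the glands. Of the 470, 70.0% lay in 5 cells and 214 in 1 cell. In Tumor 2 no epithelial-like cell held more than 2. Cells with a UMI numbered 65 in Tumor 1 and 33 in Tumor 2, against at most 1 in any gland. The log2 fold change against DCIS was 6.27 (SE 1.40, edgeR adjusted p = 0.0705), and 3.70 without Tumor 1.

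**Figure D3:**
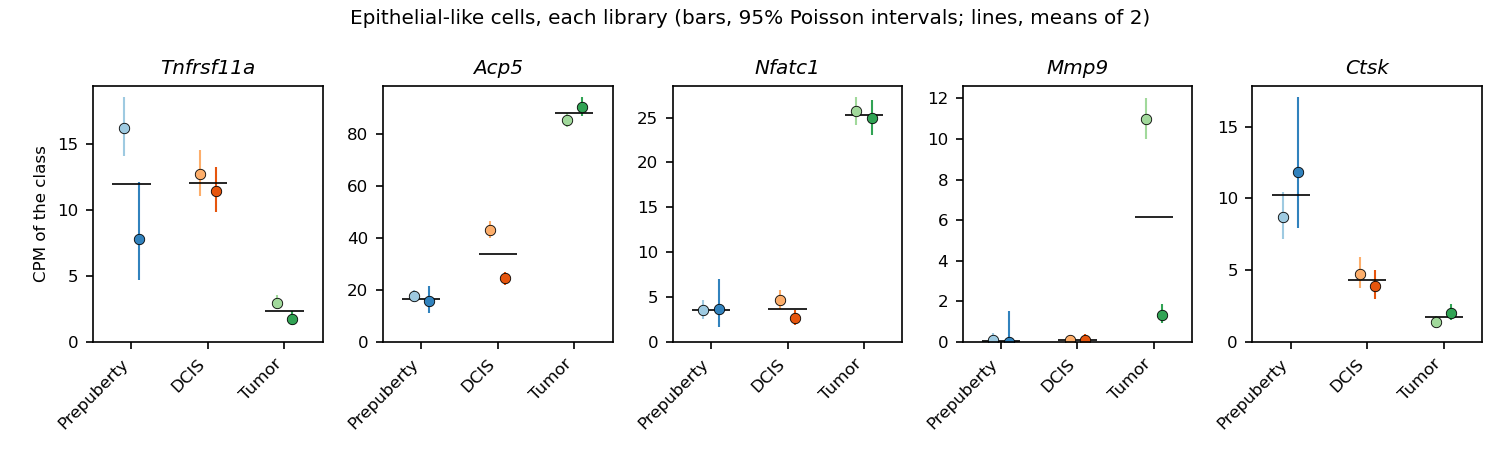
Levels of 5 of the genes in epithelial-like cells of each library, in CPM of the class, with 95% Poisson intervals and the mean of the 2 libraries of each state (lines). Nfatc1 (25.7 and 24.97 CPM) and Acp5 (85.2 and 90.4 CPM) were highest in the tumours, and Tnfrsf11a (2.96 and 1.75 CPM) was lowest there; Mmp9 was high in Tumor 1.

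The largest values of the osteoclast-type genes came from a small set of macrophage-like cells in tumours. Ctsk lies on the plus strand of chromosome 3 at 95499256 to 95509362, and Acp5 on the minus strand of chromosome 9 at 22126727 to 22135711. Their promoters, chr3:95498960-95499209 and chr9:22135747-22135996 (250 bases before the RefSeq start, one of several for Acp5), are shown because the 2 genes were the most abundant of the 10 in the same cells.
Ctsk promoter: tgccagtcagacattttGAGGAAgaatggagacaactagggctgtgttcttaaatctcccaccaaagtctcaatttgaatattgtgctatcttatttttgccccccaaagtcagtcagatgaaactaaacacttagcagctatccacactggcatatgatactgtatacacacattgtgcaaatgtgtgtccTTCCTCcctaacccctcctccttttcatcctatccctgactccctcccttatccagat
Acp5 promoter: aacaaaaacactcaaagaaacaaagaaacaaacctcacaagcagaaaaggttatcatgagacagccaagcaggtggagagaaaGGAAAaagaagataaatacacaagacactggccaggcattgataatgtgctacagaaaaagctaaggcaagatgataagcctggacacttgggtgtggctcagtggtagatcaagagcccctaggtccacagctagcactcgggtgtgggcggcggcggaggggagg
Ctsk held 2 matches of GAGGAA, 1 on each strand, and the Acp5 entry shown held 1 of GGAAA. Of the other Acp5 entries, 1 held a single GGAAA, and 1 held 2 matches of GGAAA and 1 of CATGTG. These short motifs are common, and no match was tested for function.

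In macrophage-like cells Ctsk was at 50.4 and 85.1 CPM in Prepuberty, 19.5 and 26.0 CPM in DCIS, 45.01 CPM in Tumor 1 and 3525 CPM in Tumor 2. The Tumor 2 level came from 5422 UMIs in 23 of 190 cells, and 17 of those cells held 5416 of them (99.9%). The 17 cells held 22 to 927 Ctsk UMIs each, while no other macrophage-like cell of Tumor 2 held more than 1. In Tumor 1 a single cell held 88 of 102 UMIs, and the next held 3. No cell of the 4 glands held more than 5. Cells with at least 20 Ctsk UMIs, a limit chosen after these values were seen, are called Ctsk-high below. They made up 17 of 190 macrophage-like cells in Tumor 2 (8.95%, exact binomial interval 5.30 to 13.9), 1 of 422 in Tumor 1 (0.237%, 0.00600 to 1.31) and none in the glands.

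**Figure D4:**
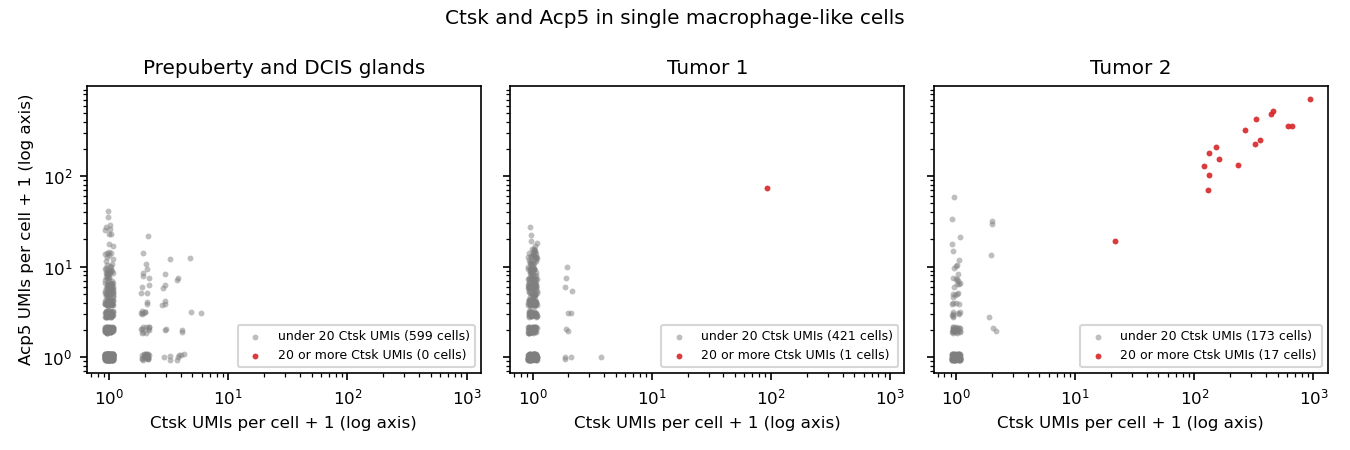
Ctsk and Acp5 UMIs of each macrophage-like cell (both axes log, 1 added, points jittered), for the 4 glands together and for each tumour. The 17 Ctsk-high cells of Tumor 2 and the 1 of Tumor 1 (red) stand apart on the Ctsk axis from all other cells (grey), none of which held more than 5 Ctsk UMIs. On the Acp5 axis they overlap in Tumor 2, where the lowest Ctsk-high cell held 18 Acp5 UMIs and another cell held 60.

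The Ctsk-high cells carried the osteoclast-type genes together. Of the 17 in Tumor 2, 16 held all 6 of Ctsk, Mmp9, Acp5, Nfatc1, Dcstamp and Ocstamp, and the shallowest, with 2110 UMIs, held 3. No other macrophage-like cell of Tumor 2 held more than 5 of the 6. The Ctsk-high cell of Tumor 1 held 88 UMIs of Ctsk, 67 of Acp5, 19 of Mmp9 and 4 of Nfatc1, with none of Dcstamp or Ocstamp. These cells were deep, with a median of 17113 UMIs in Tumor 2 against 5547 in the other 173 macrophage-like cells, so their levels were compared as CPM and, as the cells were chosen on Ctsk, with no test.

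The proteases Ctsk and Mmp9 and the phosphatase Acp5 had the highest CPM of the 10 genes in the 17 cells. Ctsk was at 18839 CPM in the 17 cells and 4.80 CPM in the others, Acp5 at 16154 and 309 CPM, and Mmp9 at 7799 and 54.4 CPM. Dcstamp and Ocstamp encode membrane proteins needed for osteoclast precursors to fuse. Dcstamp was at 546 and 59.2 CPM and Ocstamp at 369 and 2.40 CPM. Nfatc1 was at 452 and 52.8 CPM. The receptor Tnfrsf11a was in 15 of the 17 cells at 146 CPM (95% interval 105 to 197) and in 56 of the others at 64.8 CPM (51.4 to 80.5). The calcitonin receptor Calcr, a marker of mature osteoclasts, had 3 UMIs in 2 of the 17 cells and none in the others. Neither Tnfsf11 nor Tnfrsf11b had a UMI in the 17 cells, where 3 counts over these cells would be 10.4 CPM.

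Other osteoclast genes, from a list of 25, were mostly higher in the same cells. Over 2-fold differences were found for 22 of the 25, with 15 higher and 7 lower in the Ctsk-high cells, at a median ratio of 2.99. Over all 8785 genes with at least 10 UMIs, 1117 were higher and 2873 lower by that measure, at a median ratio of 0.791. Atp6v0d2, a subunit of the proton pump, was at 1110 against 49.6 CPM, and the integrin subunit Itgb3 at 358 against 0.7996 CPM. Slc9b2, a sodium-proton exchanger of osteoclasts, was at 640 against 6.40 CPM, and carbonic anhydrase Car2 at 417 against 46.4 CPM. The immune receptors Oscar and Siglec15 had 15 and 12 UMIs in the 17 cells and none in the others. Lower genes included Irf8 (3.48 against 194 CPM), known as a repressor of osteoclast formation, and Hif1a (34.8 against 217 CPM). The receptor Trem2 (150 against 430 CPM) and the adaptor Fcer1g (922 against 2212 CPM), both of which act in osteoclast formation, were lower too, as were Bcl6 and Pparg, with 1 and 0 UMIs in the 17 cells. These examples were chosen after their values were seen.

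The Ctsk-high cells lacked most macrophage markers. Of 8 macrophage markers, 2 were over 2-fold higher, Cd68 (1165 against 384 CPM) and Csf1r (762 against 305 CPM), and 6 were lower, with C1qa at 1 UMI in all 17 cells against 2900 CPM in the others. The 10 neutrophil genes had 2 UMIs in all 17 cells. T antigen and Col1a1 had none and Epcam had 4. Leaving out cells with neutrophil markers, 47 of them in Tumor 2, gave 3751 CPM of Ctsk and 1580 CPM of Mmp9 for the class.

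**Figure D5:**
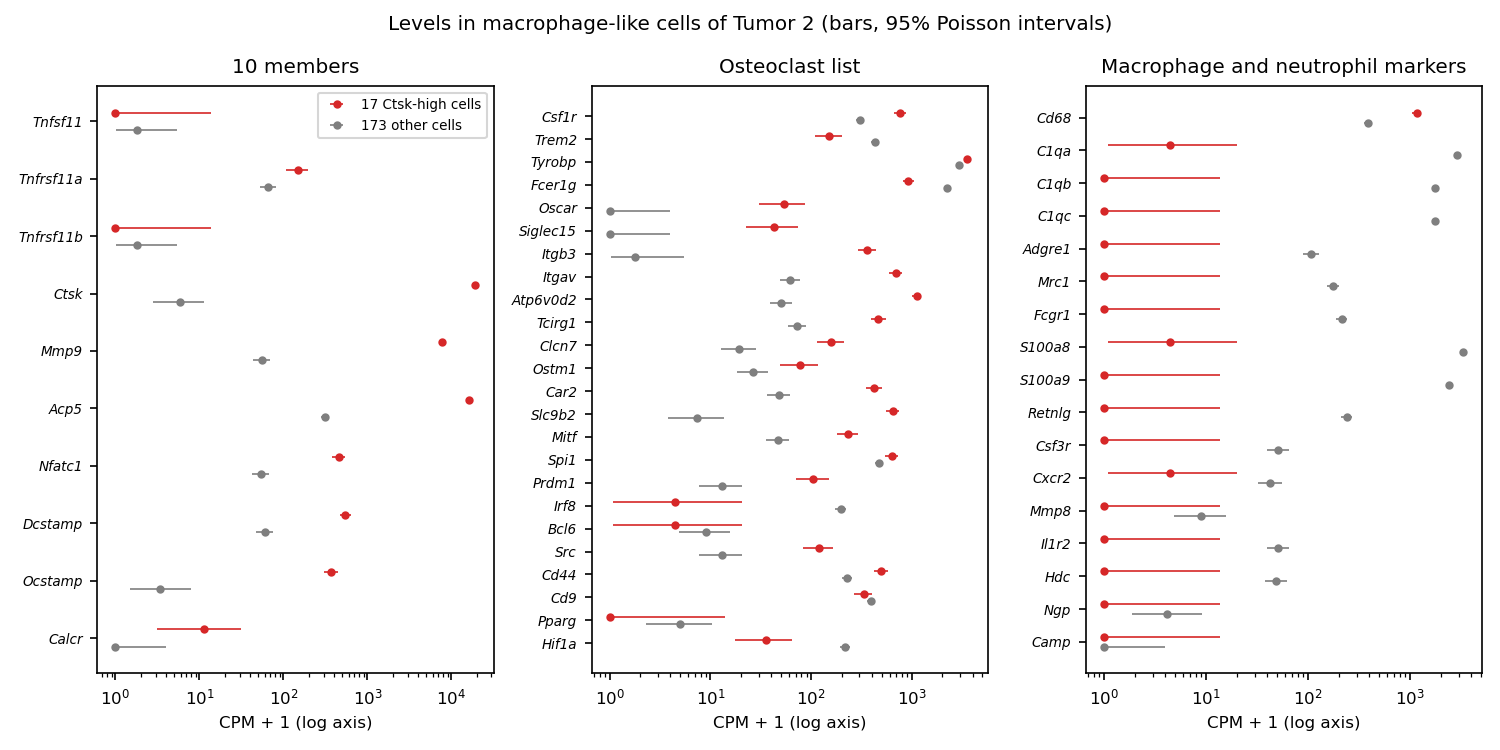
Levels in the 17 Ctsk-high cells and in the other 173 macrophage-like cells of Tumor 2, as CPM + 1 on a log axis, for the 10 genes, the osteoclast list without 1 of its genes, and macrophage and neutrophil markers; bars are 95% Poisson intervals. Ctsk (18839 against 4.80 CPM), Acp5 and Mmp9 lie far to the side of the Ctsk-high cells, and C1qa (1 UMI against 2900 CPM) far to the other.

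Co-detection per cell describes largely the same cells, since 17 of the 23 with Ctsk in Tumor 2 are the Ctsk-high cells. Of the 23 macrophage-like cells of Tumor 2 with any Ctsk UMI, 23 held Acp5, 20 Nfatc1, 19 Dcstamp, 19 Tnfrsf11a, 18 Mmp9 and 16 Ocstamp. Of the 167 without Ctsk, 37.1% held Acp5, 31.1% Tnfrsf11a, 17.4% Dcstamp, 15.0% Nfatc1, 12.6% Mmp9 and 0.599% Ocstamp, at a median depth of 5454 against 17474 UMIs. After thinning to 2000 UMIs, Ctsk was in 13.2% of macrophage-like cells of Tumor 2 (8.04 to 20.1), 1.51% of Tumor 1, 7.69% and 18.1% of Prepuberty, and 3.40% and 3.76% of DCIS. As a measure of free RNA, the thinned share in the glands was 0.517% to 2.12% in endothelial-like cells and 0.942% to 3.55% in epithelial-like cells. The shares of macrophage-like cells in DCIS and Tumor 1 are near this background and are not read as expression.

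The filters on cells bear on this count. Among all barcodes, 26 in Tumor 2 and 3 in Tumor 1 held at least 20 Ctsk and 10 Acp5 UMIs, and none in the glands. Of the 26, 17 were kept, 7 had 10% or more mitochondrial UMIs and 2 were removed otherwise. The median mitochondrial share of the 26 was 8.28%, against 3.20% over the library. With a limit of 5%, 5 Ctsk-high cells were left in Tumor 2 and none in Tumor 1. Clustering without integration, a finer clustering, or removing more doublets left all 17.

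Across whole classes, the fitted log2 fold changes of Tumor against DCIS in macrophage-like cells were 5.52 (SE 1.35) for Ctsk, 6.38 (SE 1.57) for Mmp9, 2.21 (SE 0.73) for Nfatc1, 1.57 (SE 0.75) for Acp5, 0.38 (SE 0.47) for Tnfrsf11a and -0.01 (SE 0.58) for Dcstamp. Without the Ctsk-high cells, 17 in Tumor 2 and 1 in Tumor 1, Ctsk turned to -2.51 and Mmp9 fell to 1.85. Ctsk was then at 6.21 CPM in Tumor 1 and 4.80 CPM in Tumor 2, below both DCIS libraries, while Mmp9 was at 8.43 and 54.4 CPM, above both. Of the 68 Mmp9 UMIs left in Tumor 2, 39 lay in 1 cell, and the level without it was 23.6 CPM. The level of Tumor 1 rested on 19 UMIs and was close to that of DCIS 2 (7.91 CPM). Cells with neutrophil markers, 61 in Tumor 1 and 47 in Tumor 2, were still included, and their part was not tested. Without Tumor 2 the log2 fold changes of Ctsk and Mmp9 were 0.63 and 1.32. Leaving out the Ctsk-high cells took Acp5 in Tumor 2 from 3271 to 309 CPM, below both DCIS libraries (376 and 409 CPM). Acp5 in Tumor 1 stayed above both, at 546 CPM. Nfatc1 stayed above both in each tumour (14.6 and 52.8 CPM against 8.43 and 10.2 CPM).

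Mmp9 lies on the plus strand of chromosome 2 at 164940780 to 164955850. In macrophage-like cells it was at 15.4 and 70.6 CPM in Prepuberty, 3.24 and 7.91 CPM in DCIS, 16.8 CPM in Tumor 1 and 1502 CPM in Tumor 2. Of its 2404 UMIs in Tumor 2, macrophage-like cells held 2310 (96.1%), and 16 cells with at least 10 UMIs held 2274 of these. Prepuberty 2 was above Tumor 1.

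Dcstamp (plus strand of chromosome 15, 39745930 to 39760938) was found in macrophage-like cells of every state. Its level was 4.39 and 56.1 CPM in Prepuberty, 62.9 and 71.2 CPM in DCIS, 60.5 CPM in Tumor 1 and 150 CPM in Tumor 2, of which 59.2 CPM remained without the Ctsk-high cells. Apart from Prepuberty 1, with 2 UMIs, the levels outside the Ctsk-high cells were 56.1 to 71.2 CPM. In Prepuberty 2, 13 of the 27 UMIs lay in 1 cell, and the level without it was 30.3 CPM. Ocstamp (minus strand of chromosome 2, 165393760 to 165400405) had 0 UMIs in both Prepuberty libraries, 3 and 6 in DCIS, 17 in Tumor 1 and 109 in Tumor 2. Calcr (minus strand of chromosome 6, 3685680 to 3764714) had 1 UMI in Prepuberty 2 and 3 in Tumor 2, and none in the other macrophage-like cells.

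Between DCIS and Prepuberty, edgeR called 0 of the 6 genes fitted in macrophage-like cells, against 0.0894% of 7834 genes tested. None had an unadjusted p under 0.05, and DESeq2 called 0. The largest differences were those of Mmp9 (log2 fold change -2.81, SE 1.56, edgeR adjusted p = 0.550) and Ctsk (-1.41, SE 1.23, edgeR adjusted p = 0.725).

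In fibroblast-like cells Ctsk went the other way. Fibroblasts use cathepsin K to turn over collagen taken up from the matrix. Ctsk was at 418 and 578 CPM in Prepuberty, 716 and 673 CPM in DCIS, 174 CPM in Tumor 1 and 19.8 CPM in Tumor 2, so both tumours were below all glands. The fitted log2 fold change of Tumor against DCIS was -3.40 (SE 0.95), a description. Thinned to 2000 UMIs, 45.5% to 58.9% of cells in the glands, 23.6% in Tumor 1 and 4.32% in Tumor 2 held a Ctsk UMI. Within the tumours it was lower in cells with a T-antigen UMI (79.8 CPM in Tumor 1 and 1.55 CPM in Tumor 2) than in those without (246 and 43.6 CPM). The Sfrp2, Mfap4 and Col1a1 group had 331 CPM in Tumor 1 and 357 CPM in Tumor 2, while the H19 and Brinp3 group that held most of the Tnfsf11 had 1.61 CPM. Acp5 was at 59.3 and 73.9 CPM in tumour fibroblast-like cells and 13.0 to 25.7 CPM in the glands.

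In endothelial-like cells 5 of the 10 genes passed the filter, and edgeR called 0 in each comparison. Of all 10592 genes, 0.0% were called between DCIS and Prepuberty, 13.7% between Tumor and DCIS and 11.9% between Tumor and Prepuberty. At an unadjusted p under 0.05 there were 0, 0 and 2 of the 5, and DESeq2 called 0, 0 and 1. With the replicate number as a block, or with no filter on low counts, 1 was called between Tumor and DCIS. With no filter 2 were called between Tumor and Prepuberty. Tnfrsf11a was at 30.8 and 11.1 CPM in Prepuberty, 49.3 and 13.0 CPM in DCIS, and 10.5 and 7.50 CPM in Tumor. The libraries of each gland state lay further apart than the lower of them from the tumours. The log2 fold change of Tumor against DCIS was -2.08 (SE 1.00, edgeR adjusted p = 0.199). The tumours gave 77 and 33 endothelial-like cells. In T cell-like cells only Acp5 passed the filter, and edgeR did not call it between Tumor and DCIS (log2 fold change 0.37, SE 0.58, adjusted p = 0.855), where 0.42% of 4285 genes were called. It had an unadjusted p of 0.529, and DESeq2 called 0. Prepuberty 1, with 8 T cell-like cells, was left out of that fit.

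Genes around the axis were counted in 4 lists, tested over all genes. The lists were written with earlier results of these data known, so no count is read as an excess over all genes. In macrophage-like cells between Tumor and DCIS, where 6.32% of all genes were called, 2 of 23 RANK signalling genes tested were called, at a list median of -0.40 against 0.06 over all genes. Fos, a subunit of AP-1, rose from 172 and 150 CPM in DCIS to 863 and 651 CPM in Tumor (log2 fold change 1.68, SE 0.41, edgeR adjusted p = 0.0392). Ikbkg, the regulatory subunit of the IkB kinase, fell from 25.9 and 29.4 to 6.18 and 16.3 CPM (-1.96, SE 0.47, edgeR adjusted p = 0.0381). Both calls were lost without DCIS 1, DCIS 2 or Tumor 1. That of Fos was also lost without Prepuberty 1, Prepuberty 2 or integration, and that of Ikbkg with thinned sums. Without integration a macrophage-like group led by Pf4 and Ccl4 held 236 and 163 DCIS cells and 56 and 42 Tumor cells. Another, led by C1qa and C1qc, held 4 and 6 DCIS and 340 and 106 Tumor cells. A neutrophil-like group held 66 and 46 Tumor cells. The part of this mix in the macrophage-like differences was not tested. Of 21 osteoclast list genes, only the hypoxia factor Hif1a was called, and it fell (-2.09, SE 0.47, edgeR adjusted p = 0.0323). That call was lost without DCIS 1, DCIS 2 or Tumor 2, while 5 genes of the list were called without Tumor 1 and 4 without the Ctsk-high cells. Between DCIS and Prepuberty, where 0.0894% of all genes were called, only Trem2, a receptor of lipid-handling macrophages, was called in that list, and it rose from 30.7 and 18.7 to 276 and 456 CPM (4.0, SE 0.54, edgeR adjusted p = 0.0239). Its call was lost without Prepuberty 2, DCIS 1 or DCIS 2. Of the RANK signalling genes edgeR called 0 of 23 there, with 1 at an unadjusted p under 0.05 and 0 by DESeq2.

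Known regulators of RANKL moved in both directions in fibroblast-like cells. Their list, too, was written with earlier results of these data known, so its count is a description. Between Tumor and DCIS 9 of 22 genes tested were called, 4 higher and 5 lower, at a list median of 0.38 against 0.13 over all genes, of which 15.8% were called. Pthlh, which encodes the parathyroid hormone-related protein that induces RANKL in bone, rose from 2.40 and 0.639 CPM in DCIS to 155 and 71.3 CPM in Tumor (log2 fold change 5.69, SE 0.77, edgeR adjusted p = 0.00673). It is also a leading gene of an epithelial-like group, and epithelial markers were higher in these cells of the tumours, as given above. The prostaglandin receptor Ptger2 (2.91) and the vitamin D receptor Vdr (2.83) rose too. The cytokine Il6 fell from 363 and 344 to 42.6 and 20.5 CPM (-4.12, SE 0.54, edgeR adjusted p = 0.00673). Csf1, the macrophage growth factor that osteoclast formation also needs, fell from 356 and 380 to 57.5 and 49.4 CPM (-3.47, SE 0.45, edgeR adjusted p = 0.00672), and Lif fell by 2.91. Without DCIS 1, DCIS 2 or Tumor 2 the count was 3, 1 and 4, and without integration it was 4. The call of Pthlh was lost without DCIS 2 or integration, that of Csf1 without DCIS 2 and that of Lif without DCIS 1 or DCIS 2. The call of Vdr was lost without any 1 DCIS or Tumor library or without integration. The call of Ptger2 was lost when any 1 library but Tumor 1 was left out, without integration, with only the 4 libraries fitted, and without cells with a T-antigen UMI. The call of Il6 kept its side of the threshold in all alternatives run. Between DCIS and Prepuberty edgeR called 0 of the 22 and 0.0% of all genes, with 6 at an unadjusted p under 0.05 and 3 by DESeq2.

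Of 20 mammary hormone and luminal genes in epithelial-like cells, edgeR called only Ccnd1 between Tumor and DCIS, where 1.01% of all genes were called. Ccnd1, cyclin D1, rose from 8.48 and 13.6 CPM to 131 and 117 CPM (log2 fold change 3.12, SE 0.44, edgeR adjusted p = 0.0372). The list median was -1.43 against 0.09 over all genes, with 12 of 20 at an unadjusted p under 0.05 and 9 called by DESeq2. The call was lost without any 1 of the 4 gland libraries, with the replicate number as a block (3.19, edgeR adjusted p = 0.0697), with only the 4 libraries compared and without integration. Between DCIS and Prepuberty edgeR called 0 of 20 and 0.0% of all genes, with 6 at an unadjusted p under 0.05 and 0 by DESeq2. The Tumor comparisons with DCIS and with Prepuberty share the Tumor libraries.

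Over 50 sums per class and library, genes whose log2(CPM + 1) was among the 4 most like that of Ctsk were Ccl7 (Pearson r 0.77), Ifi207 (0.72) and Ccl2 (0.72). For Tnfsf11 they were Gm45620 (0.71), Lax1 (0.69), Carmil2 (0.68) and Qrfp (0.68), and for Tnfrsf11b Wnk3 (0.72), Brinp3 (0.71), Wnt10b (0.69) and Kcna4 (0.69). Over the 43 sums without Tumor 2 the values for Brinp3 and Kcna4 were 0.26 and 0.10, while Ccl7 was at 0.86. Sums of 1 library share its depth, and those of 1 class its cells.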

How the data were processed

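The deposited files are gene by cell matrices of counts of UMIs, made by the authors with Cell Ranger 3.0.2 per the file headers, on mm10 per the labels. They are not normalised. Cells with under 200 genes or with 10% or more mitochondrial UMIs were removed, as were the cells with the highest Scrublet scores at a share that rises with the number of barcodes (707 of 23835 barcodes; its automatic threshold marked 31). The 21537 cells were clustered after integration with Seurat 5.3.0, and clusters were named from fixed marker genes, with at least 3 needed. Counts were summed per class and library with at least 10 cells and tested with edgeR 4.0.16 (quasi-likelihood, TMM, Benjamini-Hochberg adjusted p under 0.05), in 1 model per class over all states and over all genes that passed the filter on low counts. DESeq2 1.42.0 was an alternative. CPM is UMIs per 1000000 UMIs of the class in a library. Intervals are exact Poisson or binomial at 95%, and limits for a count of 0 use 3 counts. Thinning drew 2000 UMIs per cell and left out shallower cells. The steps were tested on simulated data. The members and lists were chosen with earlier results of these data known. Genes named are the 10 members, up to 3 called genes per list and direction, and the 4 most like Tnfsf11, Tnfrsf11b and Ctsk. Promoter sequences are from RefSeq (GRCm38.p6) and gene positions from GENCODE annotation of GRCm38. Nfatc1 has none reported here. The values of 2 other genes that these rules name are not reported here.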

Additional observations from a re-analysis of the deposited data

Results flagged for a closer look

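For Tnfrsf11a and Ctsk both Tumor libraries lay above both DCIS libraries in one class and below both in another. For Tnfrsf11a, macrophage-like minus epithelial-like cells gave a difference of 3.05, and macrophage-like minus endothelial-like cells 2.45. For Ctsk, macrophage-like minus epithelial-like cells gave 7.26, and macrophage-like minus fibroblast-like cells 8.91. Without the Ctsk-high cells, Ctsk in macrophage-like cells of both tumours was below both DCIS libraries too (log2 fold change -2.51). Without Tumor 2 the log2 fold change was 0.63. For Tnfrsf11a in macrophage-like cells Tumor 1 (27.4 CPM) was barely above DCIS 1 (27.2 CPM), and without its Ctsk-high cell (27.1 CPM) it was below. These differences were not tested, and the macrophage-like and fibroblast-like contrasts had been used to choose the genes. Clusters left unnamed held Tnfsf11 at 9.07 CPM in Tumor 2, mostly in 1 cluster of 293 cells led by Npy, Car12 and Acan, which held 59 of the 60 UMIs. The filters on cells removed 9 barcodes of Tumor 2 with at least 20 Ctsk and 10 Acp5 UMIs.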

How the results depend on the processing

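Depth limits the rare genes: Tnfsf11, Ocstamp and Calcr had few UMIs in most classes, 2 libraries a state leave few degrees of freedom, and calls near the threshold moved with most choices. The labels do not say that libraries with the same number belong together. The 13 correlations of their deviations ranged from -0.08 to 0.35, and in fibroblast-like cells all 3 were over 0.1 (0.11 to 0.32), so a pairing can be neither taken nor dismissed from them. Counts of members called, with the main count first, were as follows. Epithelial-like cells, DCIS against Prepuberty, 0, and 2 with no filter on low counts. Tumor against DCIS, 1, and 4 with the DESeq2 Wald test or no filter, 0 with the replicate block, with only the 4 libraries compared, with 2 times the doublet share removed, with thinned sums, without integration or at resolution 1.2, and 0 to 2 leaving out 1 library. Tumor against Prepuberty, 4, and 2 with only the 4 libraries, 0 without integration, where Tumor 2 had fewer epithelial-like cells, and 0 to 5 leaving out 1 library. Endothelial-like cells, Tumor against DCIS, 0, and 1 with no filter or with the replicate block; Tumor against Prepuberty, 0, and 1 with DESeq2 and 2 with no filter. Macrophage-like cells, DCIS against Prepuberty, 0, and 1 with no filter.

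The osteoclast list had 1 call between DCIS and Prepuberty, 5 with no filter and 0 to 1 leaving out 1 library. Between Tumor and DCIS it had 1, and 4 with no filter, 2 at a mitochondrial limit of 5%, 4 without Ctsk-high cells and 0 to 5 leaving out 1 library (5 without Tumor 1, 2 without Tumor 2). The RANK signalling list between Tumor and DCIS had 2, and 1 with thinned sums or without integration and 0 to 2 leaving out 1 library. The RANKL regulator list had 0 between DCIS and Prepuberty, and 3 with DESeq2, 4 with no filter and 1 with the replicate block. Between Tumor and DCIS it had 9, and 4 without integration and 1 to 8 leaving out 1 library. The mammary hormone list had 0 between DCIS and Prepuberty, and 7 with no filter. Between Tumor and DCIS it had 1, and 2 with DESeq2 size factors, 9 with the DESeq2 Wald test, 13 with no filter, 0 with the replicate block, the 4 libraries or no integration, 3 with thinned sums and 0 to 5 leaving out 1 library. The replicate block moved no other of these counts by over 1.5 times.

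In macrophage-like cells the log2 fold change of Tumor against DCIS was 5.52 for Ctsk and 6.38 for Mmp9. It was -2.51 and 1.85 without the Ctsk-high cells, an alternative chosen after seeing the data, and ranged from 0.63 to 6.46 and from 1.32 to 7.32 leaving out 1 library. Tnfsf11 in epithelial-like cells, DCIS against Prepuberty, turned from -4.99 to 3.85 without Prepuberty 2, which held its 14 UMIs, and ranged from -6.17 to 3.85 leaving out 1 library. Other causes were not tested.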

Other observations

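At a finer clustering the B cell-like class divided into 120 dendritic-like and 116 B cell-like cells. All 48 Tnfrsf11a UMIs lay in 34 of the dendritic-like cells and none in the B cell-like cells. They numbered 4 and 7 in Prepuberty, 16 and 20 in DCIS, 1 in Tumor 1 and 0 in Tumor 2, where only 5 such cells were found. Dcstamp lay the other way, with 31 UMIs in 12 of 31 dendritic-like cells of Tumor 1 (163 CPM). It had 1 UMI in Tumor 2 and none in the glands. Without integration only 5 cells of Tumor 1 and 0 of Tumor 2 were dendritic-like, against 8, 19, 28 and 28 in the glands. The part of this grouping in the tumour values was not tested. These cells were too few per library for a test.

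Pericyte-like or smooth muscle-like cells held Ctsk at 90.5 and 73.7 CPM in Prepuberty, 72.0 and 93.4 CPM in DCIS, and 136 and 181 CPM in Tumor, the last from 10 UMIs in 5 cells.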
